A study of Homo sapiens with 4 samples.

Results

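The account covers 10 human genes that make microRNAs or carry out silencing by them: the Argonautes AGO1, AGO2, AGO3 and AGO4, the scaffold proteins TNRC6A, TNRC6B and TNRC6C, and the processing factors DICER1, DROSHA and DGCR8. Members are the probe sets whose platform annotation names exactly 1 gene, that gene being 1 of these 10. This gave 40 of the 49395 probe sets on the array, for 10 of the 18132 genes with a probe set. They were measured in SCC-9, an established human cell line derived from a tongue squamous carcinoma, on 4 PrimeView arrays. Cells of 2 arrays had received a miR-585-5p mimic and cells of the other 2 the control small RNA miR-NC, both at 30 nM, 24 hours after seeding, and total RNA was taken 36 hours after transfection. All 4 arrays share the line and the transfection, and no array of untransfected cells was analysed here. The comparison, mimic against miR-NC, shows how the transcripts of the silencing machinery differ in cells given an excess of 1 microRNA.

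A microRNA is cut from its primary transcript in the nucleus by the RNase III enzyme DROSHA with its RNA-binding partner DGCR8. The hairpin is exported and cut again in the cytoplasm by DICER1, and 1 strand of the resulting duplex is held by an Argonaute protein, which pairs it with messenger RNAs mainly through the seed near its 5′ end. The Argonaute binds a TNRC6 protein (also called GW182), which recruits deadenylases to the bound message, and decapping and decay follow. AGO2 is the Argonaute known for cutting a fully matched target, while the 4 proteins overlap in microRNA-guided repression. A mimic is supplied as a short duplex of mature length, so it is loaded into Argonautes without the cuts by DROSHA and DICER1.

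The sequences of the transfected microRNA, of the other arm of its hairpin and of the 1 other mature microRNA sharing bases 2 to 7 show the guide given to the Argonautes and how far its seed is shared. They are from RefSeq, GRCh38.p14, 5′ to 3′, with the seed (bases 2 to 8) in capitals.
hsa-miR-585-5p: cUAGCACAcagauacgcccaga
hsa-miR-585-3p: uGGGCGUAucuguaugcua
hsa-miR-5682: gUAGCACCuugcaggauaaggu
The 22 bases of hsa-miR-585-5p lie at chr5:169263649-169263670 on the minus strand, and the 19 bases of hsa-miR-585-3p at chr5:169263616-169263634. Of 2370 mature microRNA names in the table, 1 carries the seed of hsa-miR-585-5p, namely itself. The hairpin of 94 bases is shown with the 5p arm (bases 25 to 46) in capitals, and the 3p arm covers bases 61 to 79.
MIR585 hairpin: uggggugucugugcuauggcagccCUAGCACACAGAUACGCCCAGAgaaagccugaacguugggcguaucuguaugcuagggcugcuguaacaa
The hairpin lies at chr5:169263601-169263694 on the minus strand, within the span of the gene SLIT3. No probe set is annotated to MIR585, and sites for the seed in the members' messages were not analysed here.

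Median intensities of the arrays ran from 30.6 to 31.3, and arrays of 1 group correlated at 0.998 (mimic) and 0.997 (miR-NC) across probe sets, which are not independent. Background was set for each array by its brightest of 20 control probe sets with no human target, which ran from 14.2 to 16.8, the highest on control array 1. The labels do not say that arrays of a group came from separate cultures, so each p-value rests on a spread between samples that may be technical only. Of the 8 squamous epithelial markers, 5 had a probe set, among them KRT5 and CDH1, and all 5 lay above background on every array, with summed intensities of 15367 to 16053 with the mimic and 12723 to 13384 with miR-NC. These markers moved both ways: KRT14 averaged 4981 against 2548, CDH1 801 against 1916 and ITGB4 293 against 633. The leukocyte marker PTPRC and the fibroblast marker LUM were at background on every array, while 1 of 6 fibroblast markers (summed intensity 85.4 and 86.5 against 81.7 and 83.3), 2 of 5 leukocyte markers (182 and 214 against 172 and 184) and 3 of 4 endothelial markers (104 and 121 against 142 and 152) exceeded it on all arrays. Of those that exceeded it, CD14 averaged 94.6 with the mimic against 59.1 with miR-NC and PDGFRB 39.2 against 37.8. Lower with the mimic were CD68 (78.5 against 90.7), KDR (43.2 against 71.1), VWF (41.4 against 44.8) and PECAM1 (17.2 against 18.2). Their part in the members' changes was not tested, and on these bulk samples a change in the make-up of the culture and a change of RNA per cell cannot be told apart. On the log2 scale the poly(A) spikes, foreign RNAs put in ahead of labelling, stood 0.35 higher with the mimic, whereas the hybridization spikes differed by -0.05. With arrays set to the poly(A) spikes, the median change over all genes tested went from -0.06 to -0.40 and the share of probe set calls that are higher from 53.1% to 16.7%. On the deposited scale the reference genes GAPDH and ACTB changed by 0.15 ± 0.03 and 0.34 ± 0.10 (log2, SE, 2 arrays per group, limma adjusted p = 1.94e-03 and 0.0115), and with the poly(A) spikes both values turned, to -0.20 and -0.01. Both calls ended without the trend (0.110 and 0.0908) and without mimic array 2 (0.0578 and 0.183), that of ACTB also without mimic array 1 (0.0848), and ACTB ranged from 0.15 to 0.53 on leaving out 1 array.

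On the deposited scale, more member probe sets were higher than lower in the mimic cells. Of the 40 member probe sets, 34 passed the filter on low values and were tested, and 20 of them were higher, 2 lower and 12 not past the threshold (limma on log2 intensity, adjusted p under 0.05 over 34505 probe sets). Over all probe sets tested, 27.0% were called higher and 23.9% lower, 51.0% in all, and the median log2 change was -0.04 against 0.52 for the 34 member probe sets. Both mimic arrays lay above both control arrays for 25 of the 34 and below them for 5, beside 36.3% and 40.4% of all probe sets tested (76.8% in either direction). The other 6 probe sets, 1 each of AGO4, TNRC6C, DROSHA and DGCR8 and 2 of TNRC6A, had mean intensities of 3.64 to 10.1 in each group and were not above background on any array. Names ending in _s_at or _x_at mark probe sets that are shared or may cross-hybridize. The probe set with the highest mean log2 intensity is so marked for AGO3, TNRC6A, TNRC6B and DGCR8. By role, Argonautes had 7 probe sets higher and 1 lower of 9 tested, TNRC6 genes 11 higher and 0 lower of 16, and the processing factors 2 higher and 1 lower of 9. Under scaling to the poly(A) spikes, 13 member probe sets were higher and 10 lower, beside 3917 and 19510 of all 34505 probe sets tested. The 13 were 3 of AGO3, 2 of AGO4, 3 of TNRC6A and 5 of TNRC6B, all of them also higher on the deposited scale. Of the 34, 2 passed the filter only through the mimic arrays, so that they had to be higher there (AGO4 11739597_at and TNRC6B 11736495_a_at), and without them 18 of 32 were higher, or 12 under scaling to the poly(A) spikes.

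**Figure D1:**
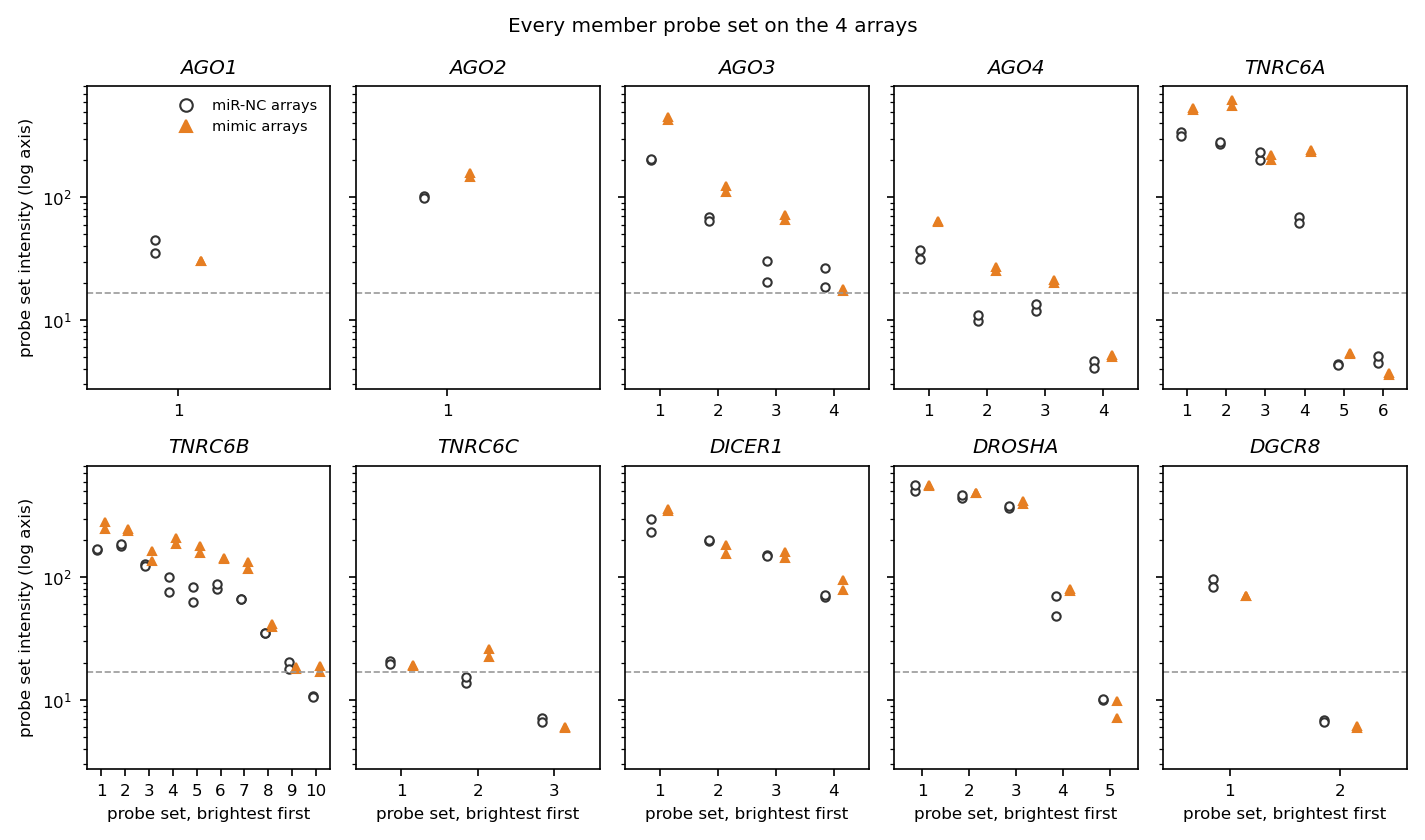
Intensity (log axis) of each of the 40 member probe sets on the 4 arrays, by gene, brightest probe set first, with miR-NC arrays as open circles, mimic arrays as triangles and a dashed line at the brightest control probe set with no human target on any array, 16.8. The mimic arrays sit above both miR-NC arrays for the first 3 AGO3 probe sets, for 3 of the first 4 of TNRC6A and for 9 of the 10 of TNRC6B.

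**Figure D2:**
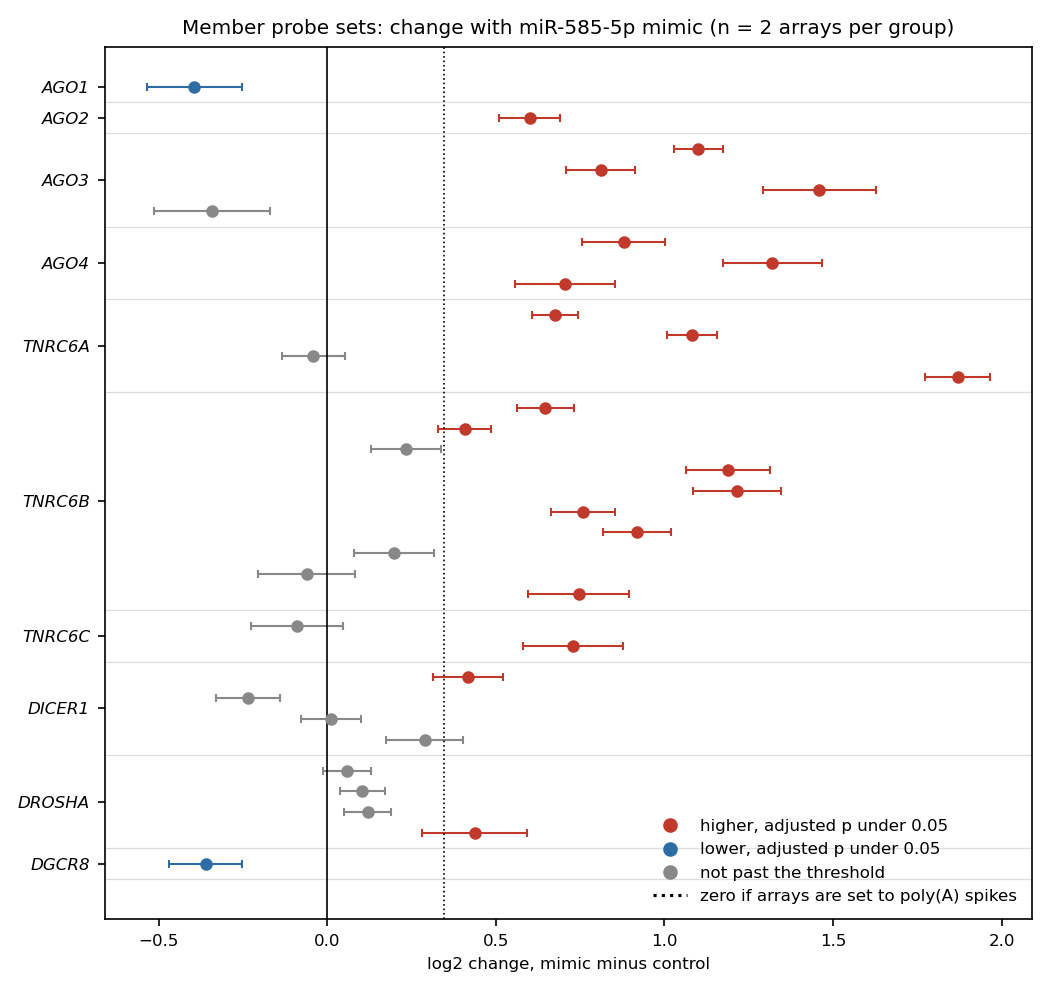
Log2 change (mimic minus miR-NC) with its SE for the 34 member probe sets tested, by gene and brightest first, red where called higher, blue where called lower and grey where not past the threshold. Changes run from -0.39 in AGO1 to 1.87 in TNRC6A, and the dotted line at 0.35 is where 0 would lie under scaling to the poly(A) spikes.

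The Argonautes did not move as 1 group: AGO2, AGO3 and AGO4 were higher in the mimic cells and AGO1 was lower, as measured by the brightest probe set of each, the one with the highest mean log2 intensity over the 4 arrays. AGO2, the Argonaute with slicer activity, has 1 probe set (11754098_a_at). It read 147 and 158 with the mimic and 102 and 98.2 with miR-NC. The groups do not overlap, and AGO2 rose by 0.60 ± 0.09 in log2 units (SE, 2 arrays per group, limma adjusted p = 1.51e-04), or 1.52-fold. With the poly(A) spikes the difference was 0.25 and no longer past the threshold (adjusted p = 0.0609).

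AGO3, an Argonaute encoded beside AGO1, had the largest change of the 4 by the brightest probe set. Its brightest probe set (11739978_s_at) read 452 and 423 with the mimic and 203 and 205 with miR-NC, a rise of 1.10 ± 0.07 (log2, SE, 2 arrays per group, limma adjusted p = 1.82e-07), or 2.15-fold. A second (11756925_a_at) read 72.0 and 65.8 against 20.6 and 30.5 and rose by 1.46 ± 0.17 (limma adjusted p = 1.60e-05), and another (11740857_x_at) read 111 and 124 against 68.7 and 64.8 and rose by 0.81 ± 0.10 (limma adjusted p = 3.41e-05). In these 3 probe sets both mimic arrays lay above both control arrays, and the calls held in each scaling tried. The fourth AGO3 probe set (11760530_at) went the other way, at 18.0 and 17.2 with the mimic and 18.7 and 26.5 with miR-NC, with the mimic arrays just below the lower control array. Its change of -0.34 ± 0.17 did not pass the threshold (limma adjusted p = 0.118), and it was -0.09 without control array 2 (adjusted p = 0.653). It passed without control array 1 (-0.59, adjusted p = 9.68e-03) and with the poly(A) spikes (-0.69, adjusted p = 1.09e-03).

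AGO4, a catalytically inactive Argonaute, had 3 probe sets tested and all 3 were called higher, 1 of them having passed the filter on the mean only through the mimic arrays. The brightest (11759312_at) read 63.8 and 62.9 with the mimic and 37.3 and 31.7 with miR-NC, a rise of 0.88 ± 0.12 (log2, SE, 2 arrays per group, limma adjusted p = 7.71e-05), or 1.84-fold. The other 2 were above background on both mimic arrays and on neither control array, so that their changes are bounds, the mimic mean over the higher of each control array's brightest no-target probe set and its own value. The AGO4 probe set 11739597_at read 24.9 and 27.2 against 9.82 and 11.1, at least 1.69-fold higher, and is the one that passed the filter through the mimic arrays, so no p is given. The AGO4 probe set 11758237_s_at read 19.9 and 21.2 against 11.8 and 13.4, at least 1.33-fold higher (limma adjusted p = 1.65e-03), and this call ended with the poly(A) spikes (0.36 by the fit, adjusted p = 0.105).

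AGO1, an Argonaute encoded between AGO4 and AGO3, was the Argonaute called lower. Its 1 probe set (11755432_a_at) read 30.6 and 30.4 with the mimic and 45.3 and 35.4 with miR-NC. Both mimic arrays lay below both control arrays, though the control arrays differed more from each other than the lower of them did from the mimic arrays. AGO1 fell by 0.39 on the log2 scale (SE 0.14, 2 arrays per group, limma adjusted p = 0.0352). The call ended without mimic array 1 (adjusted p = 0.173), without mimic array 2 (0.194), without control array 1 (change -0.22, adjusted p = 0.224), with the hybridization spikes (0.0718) and without the mean-variance trend (0.0519), and held with the poly(A) spikes. A further probe set (11720866_a_at) is annotated to both AGO1 and AGO3, so it is no member and names neither gene. It read 100.2 and 94.0 with the mimic and 281 and 265 with miR-NC, 2.81-fold lower (log2 change -1.49 ± 0.09, limma adjusted p = 5.86e-08). This was opposite to the 3 AGO3 probe sets that rose. It was in the direction of AGO1 and of the fourth AGO3 probe set (11760530_at, -0.34, not past the threshold), but larger than either change.

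The differences between Argonautes were tested within arrays, where any shift of a whole array cancels, on the brightest probe set of each gene, with 12 pairs of related members fitted together with the pairs of probe sets of every gene. Of all 17619 pairs, 29.3% differed at an adjusted p under 0.05, and of the 12 pairs of related members 9 did. Of the 17619, however, 17607 compare probe sets of 1 gene, so 29.3% is no base rate for pairs of different genes. Such a rate was not computed. AGO2, AGO3 and AGO4 each changed more than AGO1, by 0.99 ± 0.15, 1.50 ± 0.15 and 1.27 ± 0.15 in log2 units (SE, 2 arrays per group, limma adjusted p = 1.25e-03, 1.14e-04 and 2.84e-04). AGO3 also changed more than AGO2, by 0.50 ± 0.11 (limma adjusted p = 8.68e-03), but not past the threshold without mimic array 1 (0.40, adjusted p = 0.110) or by the mean of all probe sets (0.16, adjusted p = 0.474). AGO4 and AGO2 differed by 0.28 (95% interval -0.03 to 0.59) and AGO4 and AGO3 by -0.22 (95% interval -0.51 to 0.07), neither past the threshold, though the latter was called with log2 of intensity plus 16 (-0.39, adjusted p = 0.0128). The count of 9 pairs was 5 without mimic array 1 or without mimic array 2, and 3 by the mean of all probe sets.

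AGO4, AGO1 and AGO3 are neighbours on chromosome 1, between the protein-coding genes CLSPN and TEKT2 and in that order. Their promoter windows, 250 bases before to 50 after the start, are shown because these neighbours were called in opposite directions on the deposited scale. The AGO1 call ended under several alternatives, as given above. The windows are from RefSeq, GRCh38.p14, plus strand, 5′ to 3′, and capitals mark motif matches on either strand.
AGO4 promoter, chr1:35807766-35808065: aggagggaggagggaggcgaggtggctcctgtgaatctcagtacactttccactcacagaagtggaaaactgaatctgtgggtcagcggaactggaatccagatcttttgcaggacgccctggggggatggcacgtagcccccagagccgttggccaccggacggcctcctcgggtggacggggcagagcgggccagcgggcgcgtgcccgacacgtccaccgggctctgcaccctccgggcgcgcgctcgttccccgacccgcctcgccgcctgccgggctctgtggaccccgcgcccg
AGO1 promoter, chr1:35882959-35883258: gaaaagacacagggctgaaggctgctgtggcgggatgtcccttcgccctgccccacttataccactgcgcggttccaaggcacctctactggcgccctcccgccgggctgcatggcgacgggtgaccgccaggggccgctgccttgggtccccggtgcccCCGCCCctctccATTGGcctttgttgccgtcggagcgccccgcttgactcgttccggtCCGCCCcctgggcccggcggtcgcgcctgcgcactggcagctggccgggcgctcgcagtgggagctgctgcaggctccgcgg
AGO3 promoter, chr1:35930855-35931154: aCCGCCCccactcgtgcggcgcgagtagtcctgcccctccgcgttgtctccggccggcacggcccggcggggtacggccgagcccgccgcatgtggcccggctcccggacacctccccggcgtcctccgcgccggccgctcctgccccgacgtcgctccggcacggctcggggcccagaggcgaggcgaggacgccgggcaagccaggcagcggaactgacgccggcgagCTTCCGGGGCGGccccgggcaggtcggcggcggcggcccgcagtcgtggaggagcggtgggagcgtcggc
Searched on both strands were the CCAAT box (CCAAT), the GC box (GGGCGG), the TATA box (TATAAA), an ETS motif (CCGGAAG), a CRE (TGACGTCA) and E2F in 2 forms (TTTCGCGC and TTTGGCGC). AGO1 held a CCAAT box at -78 and GC boxes at -90 and -32 from the start, all on the minus strand. AGO3 held GC boxes at -249 on the minus strand and -14 on the plus strand, the latter overlapping an ETS motif at -20 on the minus strand by its first base, and AGO4 held none of the motifs. Of 35116 promoter windows of this length, 34.6% hold a CCAAT box, 45.0% a GC box and 10.3% the ETS motif. The TATA box (11.5% of windows), the CRE (1.85%) and the E2F forms (0.515% and 0.652%) had no match in the windows of these 3 genes, or in those of the other 6 members that have one.

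All 3 TNRC6 genes had a probe set that was higher in the mimic cells and one that was not, and no TNRC6 probe set was called lower on the deposited scale. TNRC6A gave the highest change of any member, in a probe set marked as shared in its name. Its probe set 11755871_s_at read 236 and 242 with the mimic and 69.8 and 61.4 with miR-NC, a rise of 1.87 ± 0.10 in log2 units (SE, 2 arrays per group, limma adjusted p = 2.44e-08), or 3.65-fold. The probe set 11717817_a_at read 557 and 623 against 273 and 283 and rose by 1.08 ± 0.07 (limma adjusted p = 2.48e-07). The probe set with the highest mean log2, 11748942_s_at, which by mean intensity ranks behind 11717817_a_at, read 530 and 515 against 339 and 316 and rose by 0.68 ± 0.07 (limma adjusted p = 6.17e-06). None of these 3 overlapped between groups, and all 3 stayed called in every scaling. The fourth TNRC6A probe set, 11717818_at, overlapped, at 220 and 200 with the mimic and 200 and 232 with miR-NC. Its change was -0.04 ± 0.09 on the deposited scale (limma adjusted p = 0.734), 0.01 with the hybridization spikes and -0.39 with the poly(A) spikes (adjusted p = 1.39e-03).

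TNRC6B, the TNRC6 gene with the most probe sets, had 7 of 10 called higher and 3 not past the threshold, with changes from -0.06 to 1.21 around a median of 0.70. Both mimic arrays lay above both control arrays for 9 of the 10. Over all probe sets tested, 27.0% were called higher and 36.3% lay above both control arrays in this way. Among the 7 and the 9 is 11736495_a_at, which passed the filter only through the mimic arrays and so had to be higher there. The brightest, 11757823_s_at, read 249 and 280 with the mimic and 168 and 170 with miR-NC, a rise of 0.65 ± 0.08 (log2, SE, 2 arrays per group, limma adjusted p = 4.47e-05). The highest change was in 11736498_a_at, at 156 and 180 against 62.9 and 83.3, a rise of 1.21 ± 0.13 (limma adjusted p = 9.15e-06), closely followed by 11740670_a_at, at 199 ± 15.1 against 87.9 ± 17.2 (SD, n = 2), a rise of 1.19 ± 0.12 (limma adjusted p = 7.35e-06). In both, the control arrays differed from each other by more than in most TNRC6B probe sets, yet stayed well below the mimic arrays. Another 3 probe sets, above background on all arrays, 11758580_s_at, 11736496_a_at and 11736494_a_at, rose by 0.92 ± 0.10, 0.76 ± 0.09 and 0.41 ± 0.08. The seventh, 11736495_a_at, was above background on the mimic arrays only, at 17.0 and 18.8 against 10.8 and 10.5, at least 1.16-fold higher, and since it passed the filter only through them no p is given. The 3 that did not pass were 11736497_a_at (0.23 ± 0.10, limma adjusted p = 0.0807), 11750564_a_at (0.20 ± 0.12, 0.187) and 11752790_a_at (-0.06 ± 0.14, 0.744). With the poly(A) spikes the call of 11736494_a_at ended (0.06), and 11736497_a_at and 11750564_a_at turned to -0.11 and -0.15, not past the threshold. The value of 11736495_a_at was then 0.40.

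TNRC6C lay near background on these arrays. Its brightest probe set, 11734076_a_at, read 18.9 and 19.1 with the mimic and 20.9 and 19.6 with miR-NC, with both mimic arrays slightly lower. The change of -0.09 ± 0.14 did not pass the threshold (log2, SE, 2 arrays per group, limma adjusted p = 0.611), but with the poly(A) spikes it was -0.44 (adjusted p = 0.0397). The probe set 11734077_a_at read 25.9 and 22.3 against 13.7 and 15.4, with control array 2 above its own background of 14.2 and control array 1 below its own of 16.8, and rose by 0.73 ± 0.15 (limma adjusted p = 1.39e-03). That call ended with the poly(A) spikes (0.38, adjusted p = 0.0744).

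Within the family, TNRC6C changed less than TNRC6A and TNRC6B by the brightest probe sets. On the log2 scale the differences TNRC6C minus TNRC6A and TNRC6C minus TNRC6B were -0.76 ± 0.12 and -0.74 ± 0.14 (SE, 2 arrays per group, limma adjusted p = 1.70e-03 and 4.04e-03). Neither passed by the mean of all probe sets of each gene (-0.43, adjusted p = 0.0650, and -0.48, adjusted p = 0.0508), and the second did not without mimic array 2 (-0.66, adjusted p = 0.0603). The mean of all probe sets takes in 1 probe set of TNRC6C and 2 of TNRC6A that were not above background on any array. TNRC6B and TNRC6A differed by -0.03 (95% interval -0.27 to 0.21, adjusted p = 0.876) by their brightest probe sets. Without probe sets marked as shared or cross-hybridizing in their names, the difference was -0.67 (adjusted p = 7.00e-04), TNRC6B changing less than TNRC6A.

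Of the 9 probe sets of processing factors tested 3 were called, beside 51.0% of all probe sets tested, and each of these 3 calls ended under more than 1 alternative. DICER1, which cuts the hairpin in the cytoplasm, read 347 and 357 with the mimic and 231 and 300 with miR-NC in its brightest probe set (11755211_a_at). Both mimic arrays were higher, while the control arrays differed from each other by more than the nearer of them did from the mimic arrays. DICER1 rose by 0.42 ± 0.11 in that probe set (log2, SE, 2 arrays per group, limma adjusted p = 5.49e-03). The other 3 DICER1 probe sets did not pass the threshold on the deposited scale. The probe set 11719525_s_at read 155 and 184 against 197 and 201, a change of -0.24 ± 0.09 (limma adjusted p = 0.0551), 11740190_s_at changed by 0.29 ± 0.11 (0.0527) and 11757970_s_at by 0.01 ± 0.09 (0.925). The call of the brightest ended without mimic array 1 (adjusted p = 0.0820), without mimic array 2 (0.114) and with the poly(A) spikes (0.07, adjusted p = 0.551), and its change was 0.23 without control array 1. The probe set 11719525_s_at was called lower with the poly(A) spikes (-0.58), after a second quantile normalization (-0.28, adjusted p = 0.0321) and without mimic array 2 (-0.36, adjusted p = 0.0425), 11757970_s_at was called lower with the poly(A) spikes (-0.33), and 11740190_s_at was called higher with the hybridization spikes (0.34, adjusted p = 0.0185) and under both stricter filters (0.0467 and 0.0490).

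DROSHA, the nuclear RNase III, had 4 probe sets tested. The brightest, 11727107_a_at, read 548 and 565 with the mimic and 503 and 568 with miR-NC, and the groups overlap. Its change of 0.06 ± 0.07 and those of 11739629_x_at and 11727108_x_at, 0.10 ± 0.07 and 0.12 ± 0.07, did not pass the threshold (log2, SE, 2 arrays per group, limma adjusted p = 0.523, 0.209 and 0.171). With the poly(A) spikes these 3 turned and were called lower, at -0.29, -0.24 and -0.23. The dimmer 11749636_a_at read 76.8 and 80.8 against 47.9 and 70.6 and rose by 0.44 ± 0.16 (limma adjusted p = 0.0340). That call ended without mimic array 1 (adjusted p = 0.177), without mimic array 2 (0.258), without control array 1 (0.16, adjusted p = 0.271), without the trend (0.101), with a second quantile normalization (0.0513) and with the poly(A) spikes (0.09, adjusted p = 0.581).

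DGCR8, the partner that positions DROSHA on the hairpin, was lower in the mimic cells. Its 1 tested probe set, 11724330_s_at, is marked as shared in its name. It read 70.1 and 70.9 with the mimic and 97.6 and 83.8 with miR-NC, with no overlap. DGCR8 fell by 0.36 on the log2 scale (SE 0.11, 2 arrays per group, limma adjusted p = 0.0151), and was lower in each scaling tried. The call ended without mimic array 1 (adjusted p = 0.119), without mimic array 2 (0.114) and without control array 1 (-0.25, adjusted p = 0.0835). The changes of the 3 processing factors differed from one another by the brightest probe sets: DGCR8 minus DROSHA was -0.42 ± 0.13 (log2, SE, 2 arrays per group, limma adjusted p = 0.0430), DICER1 minus DROSHA 0.36 ± 0.09 (0.0175) and DICER1 minus DGCR8 0.78 ± 0.17 (9.13e-03). None of these 3 differences stayed past the threshold without mimic array 1 (adjusted p = 0.165, 0.115 and 0.0559), without mimic array 2 (0.207, 0.124 and 0.0698), or by the mean of all probe sets, where the values were -0.35, 0.03 and 0.38. DGCR8 minus DROSHA also failed without control array 1 (-0.22, adjusted p = 0.172), and it and DICER1 minus DROSHA without the trend (0.0983 and 0.0637).

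Probe sets of 1 gene did not always move together. Each of the 24 other tested probe sets was compared within arrays with the brightest of its gene, and 11 differed from it (limma adjusted p under 0.05), beside 29.2% of 17607 such pairs over all genes. TNRC6A differed in 3 of 3 pairs: 11755871_s_at changed by 1.19 ± 0.10 more than the brightest (log2, SE, 2 arrays per group, limma adjusted p = 4.25e-05), 11717817_a_at by 0.41 ± 0.10 more (0.0142) while 11717818_at stood at -0.72 ± 0.12 (1.75e-03). In AGO3 1 of 3 pairs differed, with 11760530_at at -1.44 ± 0.17 (limma adjusted p = 3.07e-04). In TNRC6B 5 of 9 pairs differed, 2 upward and 3 downward, from -0.71 for 11752790_a_at to 0.57 for 11736498_a_at. TNRC6C differed in its 1 pair (0.82 ± 0.18, limma adjusted p = 8.77e-03) and DICER1 in 1 of 3, where 11719525_s_at stood at -0.65 ± 0.13 (5.55e-03). AGO4 (0 of 2) and DROSHA (0 of 3) had none past the threshold, with 95% intervals from -0.59 to 0.86 and from -0.14 to 0.68. Without mimic array 1 or without mimic array 2, 5 pairs differed in place of 11.

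**Figure D3:**
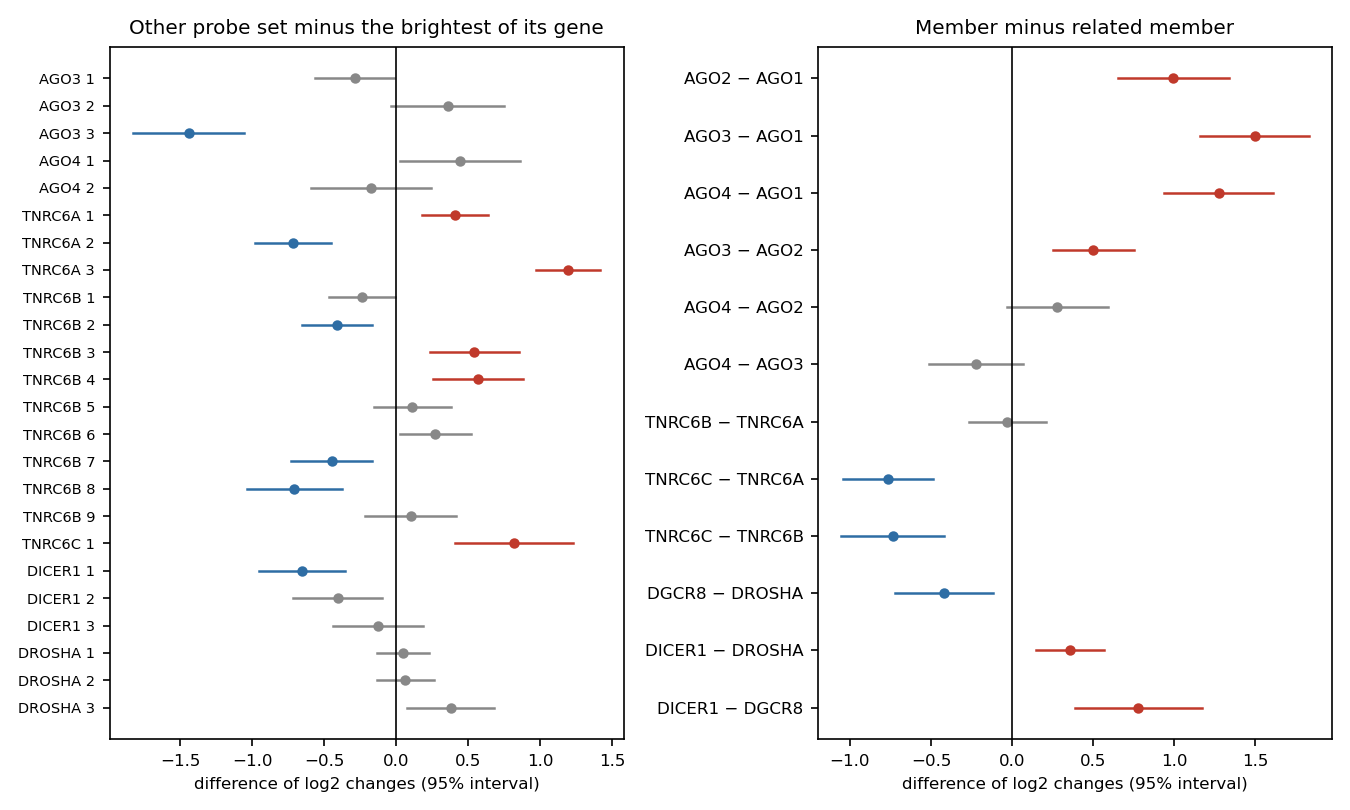
Left, the difference of log2 changes between each other tested probe set and the brightest of its gene, numbered from the brighter to the dimmer; right, the same for 12 pairs of related members by their brightest probe sets; lines are 95% intervals, red and blue mark differences past the threshold above and below 0, grey the rest. The third AGO3 probe set stands at -1.44 and the third TNRC6A one at 1.19, and the 3 pairs with AGO1 at 0.99, 1.50 and 1.27.

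The genes whose 4 values ran closest to a member's, out of 14121 compared by the distance between log2 values centred on each gene's mean, were sought for AGO3 and TNRC6A, the Argonaute and the TNRC6 gene with the largest change by the brightest probe set. Nearest to AGO3 were CHEK1, a checkpoint kinase of the DNA damage response, GALNT6, an enzyme that starts mucin-type glycosylation, and CYRIB, which binds RAC1, at distances of 0.03, 0.04 and 0.04. CHEK1 read 364 and 352 with the mimic and 165 and 168 with miR-NC. Nearest to TNRC6A were the chromatin remodelling subunit BAZ1B, PPCS, an enzyme of coenzyme A synthesis, and the Rab exchange factor DENND1B, each at 0.03. With 4 arrays in 2 groups, the measure ranks genes by a change of similar size and a similar spread.

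The other genes of the pathway were taken as 5 lists of 99 genes in all, 96 on the array and 93 tested by their brightest probe set, beside the 10 members in the same fit. Of the 10 members 6 were higher (AGO2, AGO3, AGO4, TNRC6A, TNRC6B and DICER1), 2 lower (AGO1 and DGCR8) and 2 not past the threshold (TNRC6C and DROSHA), with a median change of 0.51. Of the 93 other genes 34 were higher and 24 lower, with a median of 0.06. Over all 14122 genes tested, 28.1% were called higher and 26.9% lower, 55.0% in all, and the median was -0.06. In all, 62.4% of the 93 were called, and by list 56.5% to 76.5%, beside the 55.0% of all genes tested. With the poly(A) spikes 14 of the 93 were higher and 50 lower, beside 1613 and 8200 of all 14122 genes.

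Of the genes of nuclear processing, export and editing, 6 of 21 were higher and 6 lower, with a median of -0.04. HNRNPA2B1, a reader of marked primary transcripts, read 1747 and 1891 with the mimic and 1004 and 1080 with miR-NC and rose by 0.80 ± 0.06 (log2, SE, 2 arrays per group, limma adjusted p = 9.19e-07). The transcription factor SMAD3, which binds the DROSHA complex, fell by 0.38 (SE 0.05), the scaffold protein SAFB2 by 0.37 (SE 0.09) and the RNA-editing enzyme ADAR by 0.33 (SE 0.05), and these 4 had the largest changes of the list. The SAFB2 call ended without mimic array 2 (-0.26, adjusted p = 0.0859) and by the mean of all its probe sets (-0.19, adjusted p = 0.115). XPO5, the exporter of the hairpin, was chosen after its values were seen. It read 136 and 141 against 124 and 109 in its brightest probe set, 0.25 ± 0.09 higher (limma adjusted p = 0.0405), but was -0.44 by the mean of all its probe sets (adjusted p = 4.32e-04) and -0.09 with the poly(A) spikes. The XPO5 call also ended without the trend (0.0595), after a second quantile normalization (0.110) and without mimic array 1, mimic array 2 or control array 2 (0.130, 0.221 and 0.171).

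Of the partners of DICER1 and the chaperones that load Argonautes, 9 of 17 were higher and 4 lower, with a median of 0.32. TSN and TSNAX, the subunits of the C3PO nuclease that clears passenger strands, rose together. TSN read 572 and 565 with the mimic and 188 and 244 with miR-NC and rose by 1.41 ± 0.11, and TSNAX read 84.5 and 95.7 against 37.4 and 36.6 and rose by 1.28 ± 0.11 (log2, SE, 2 arrays per group, limma adjusted p = 1.15e-06 and 3.46e-06). The chaperone HSP90AA1, which holds Argonautes open for a duplex, rose by 0.83 ± 0.05, and ZFR, a zinc finger RNA-binding protein, fell by 0.82 (SE 0.05). TARBP2, the double-stranded RNA-binding partner of DICER1, also chosen after its values were seen, changed by 0.11 ± 0.07 and was not called (limma adjusted p = 0.200), with -0.23 under the poly(A) spikes and -0.02 by the mean of its probe sets.

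Of the proteins that bind or modify Argonautes, 7 of 18 were higher and 5 lower, with a median of 0.18. FMR1, the fragile X RNA-binding protein, read 165 and 192 with the mimic and 76.6 and 82.8 with miR-NC and rose by 1.16 ± 0.10 (log2, SE, 2 arrays per group, limma adjusted p = 3.62e-06). The RNA stabilizer ELAVL1 rose by 0.82 ± 0.07. ANKRD52, the phosphatase subunit that with PPP6C resets Argonaute phosphorylation, read 109 and 114 against 231 and 199 and fell by 0.94 (SE 0.09, limma adjusted p = 9.70e-06), and the nuclease SND1 fell by 0.79 (SE 0.07). ZSWIM8, the ubiquitin ligase adaptor that marks Argonautes for decay when a target pairs extensively with its microRNA, was chosen after its values were seen and fell by 0.77 (SE 0.08, limma adjusted p = 9.52e-06), from 258 and 251 on the control arrays to 153 and 145 on the mimic arrays.

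Of the effectors of silencing and decay, 7 of 23 were higher and 6 lower, with a median of -0.02, and the decapping enzyme and its activator changed in opposite directions. DCP2, the decapping enzyme, read 697 and 686 with the mimic and 194 and 196 with miR-NC and rose by 1.83 ± 0.06 (log2, SE, 2 arrays per group, limma adjusted p = 7.38e-09), or 3.55-fold. Its activator DCP1A read 190 and 181 against 376 and 403 and fell by 1.07 (SE 0.07, limma adjusted p = 6.60e-07), or 2.10-fold. ZFP36L2, which binds AU-rich elements, rose by 1.16 ± 0.06 and TOB1, a bridge to the deadenylases, by 0.61 ± 0.11.

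Of the genes of microRNA tailing and turnover, 5 of 14 were higher and 3 lower, with a median of 0.03. The adenylating enzyme TENT2 read 193 and 206 with the mimic and 81.3 and 98.7 with miR-NC and rose by 1.15 ± 0.11 (log2, SE, 2 arrays per group, limma adjusted p = 5.02e-06). The exonuclease ERI1 rose by 0.84 ± 0.10 and PNPT1, the mitochondrial polynucleotide phosphorylase, by 0.70 ± 0.06, while the polymerase TENT4A fell by 0.81 (SE 0.05). These values are of the brightest probe sets, and the other 1 tested of PNPT1 and the other 2 of TENT4A were not called. The 20 genes with the largest changes of the 5 lists, 4 of each, kept their direction and their call with the poly(A) spikes. This scaling lowers every log2 change by 0.35, so genes that fell could only fall further, and the rest were picked for large changes.

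**Figure D4:**
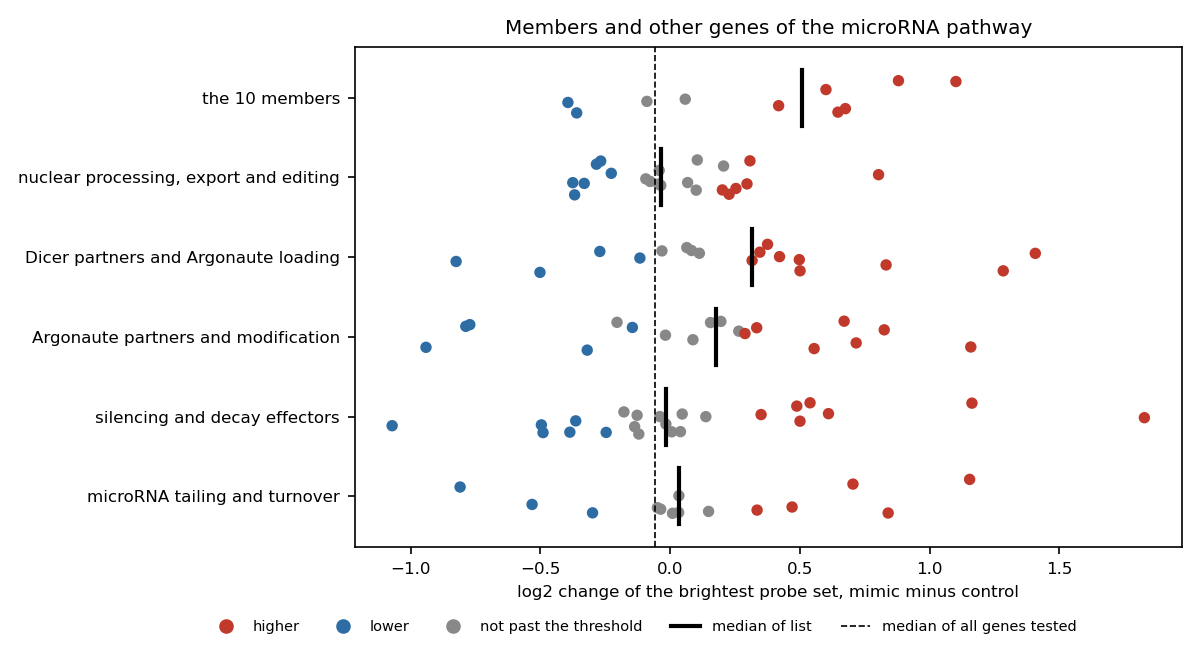
Log2 change (mimic minus miR-NC) of the brightest probe set of each gene for the 10 members and the 5 lists, red where called higher, blue where called lower and grey where not past the threshold, with the list's median as a bar and the median of all genes tested as a dashed line. The members' median is 0.51 and those of the lists lie between -0.04 and 0.32, beside -0.06 for all genes.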

How the data were processed

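RNA of SCC-9 cells was hybridised to 4 PrimeView arrays after biotin labelling of 2 ug, per the labels' protocols. The values used were the deposited probe set intensity values. The submitters' processing notes name RMA for them. Its output is normally log2, but these values run on a linear scale, so their log2 was taken. RMA equalizes probe intensities between arrays before summarising them, so most of a shift of the whole transcriptome would be removed. The deposited medians still differ slightly.

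Gene names came from the platform annotation of each probe set: 44988 have 1 gene symbol, 1832 several and 2473 none here. Suffixes _s_at and _x_at mark probe sets that are shared or may cross-hybridize. Background was taken from 20 control probe sets with no human target. Probe sets with a mean above the 30th percentile (intensity 12.0) were tested, 34505 in all. Mimic minus control was estimated by limma 3.58.1 (R 4.3.3, lmFit and a trended eBayes), two-sided, with Benjamini-Hochberg adjustment over everything fitted, calling values under 0.05. Each fit had 2 residual degrees of freedom, to which the prior brought 9.59. The same fit was run on the brightest probe set of each of 14122 genes and on 17619 within-array differences, 23 identical pairs being left out. The number of arrays limits the precision, the median SE of a log2 change being 0.11. Fits were also run on simulated data with independent noise and far fewer changed probe sets than were called here. Such a run does not check the calls themselves.

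The members and lists were chosen with earlier results of these data known. Genes named beyond the members are the 4 largest called changes of each list, the 3 nearest genes by distance, the reference genes, and 3 chosen after seeing their values. Alternatives were other scalings, filters, spread estimates, probe set choices, thresholds, a log2 of intensity plus 16, the replicate number as a block, and leaving out each array. The mean of all probe sets of a gene also took in those below the filter.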

Additional observations from a re-analysis of the deposited data

How the results depend on the processing

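With the poly(A) spikes, 13 member probe sets were higher and 10 lower, against 20 and 2, and of the 93 other pathway genes 14 were higher and 50 lower, against 34 and 24. Under that scaling 3917 of all 34505 probe sets tested were higher and 19510 lower, and of all 14122 genes 1613 and 8200. The member probe sets called lower numbered 1 with the hybridization spikes, 1 without the mean-variance trend and 0 at an adjusted p under 0.01. Of member genes, 1 was lower with the hybridization spikes, 0 at an adjusted p under 0.01 and 1 without shared or cross-hybridizing probe sets, against 2. In the last of these 9 member genes were tested and DGCR8 was not, its 1 tested probe set being marked as shared. Pairs of probe sets that differed numbered 6 at an adjusted p under 0.01, against 11, and family pairs 3 by the mean of all probe sets, against 9. Leaving out 1 array gave 18 to 20 member probe sets higher and 0 to 2 lower, 5 to 6 member genes higher and 0 to 2 lower, 5 to 15 probe set pairs and 5 to 9 family pairs that differed, and 31 to 39 pathway genes higher and 16 to 25 lower. Member genes called lower numbered 0 without mimic array 1, without mimic array 2 or without control array 1, and member probe sets 0 without mimic array 1 and 1 without either of the other two. A lone array of a group is then assumed to vary like the other group. The labels do not say whether the replicate numbers pair the arrays. Differences between same-group arrays correlated at 0.0747 over 34505 probe sets, which alone cannot settle this. With the replicate number as a block, 4 member probe sets were lower in place of 2. With that block AGO3 11760530_at and DICER1 11719525_s_at were called lower, and TNRC6B 11736497_a_at and DICER1 11740190_s_at higher. Leaving out the 2 member probe sets that passed the filter through the mimic arrays, chosen after seeing the data, left 18 higher. The causes were not tested.

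Values that turned were, with the poly(A) spikes, DROSHA 11727107_a_at -0.29 (also as the gene), 11727108_x_at -0.23 and 11739629_x_at -0.24, TNRC6B 11736497_a_at -0.11 and 11750564_a_at -0.15, DICER1 11740190_s_at -0.057 and 11757970_s_at -0.33, TARBP2 -0.23, XPO5 -0.093, ACTB -0.0057 and GAPDH -0.20. TNRC6A 11717818_at was 0.012 with the hybridization spikes and DICER1 11757970_s_at -0.046 after a second quantile normalization. By the mean of all probe sets TNRC6C was 0.15, TARBP2 -0.020, XPO5 -0.44, AGO4 minus AGO3 0.027 and TNRC6B minus TNRC6A 0.044. With log2 of intensity plus 16, AGO3 11756925_a_at minus 11739978_s_at was -0.0023 and TNRC6B 11736495_a_at minus 11757823_s_at -0.25. Leaving out 1 array, the ranges that crossed 0 were TNRC6A 11717818_at -0.15 to 0.066, DROSHA 11727107_a_at -0.030 to 0.15 (also as the gene), TNRC6B 11752790_a_at -0.16 to 0.037, DICER1 11757970_s_at -0.069 to 0.092, AGO4 11758237_s_at minus 11759312_at -0.38 to 0.035, DICER1 11740190_s_at minus 11755211_a_at -0.28 to 0.025, DROSHA 11727108_x_at minus 11727107_a_at -0.0042 to 0.13 and TNRC6B minus TNRC6A -0.14 to 0.079.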
